A study of Mus musculus with 2 samples.

Results

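The microglia and macrophage genes are 32 genes of the 55536 in the deposited gene tables, taken by symbol from the GENCODE M21 annotation whatever their level. They fall into 20 genes that macrophages of many tissues share, 6 used to mark microglia, 3 used to mark the macrophages at the borders of the nervous system, and 3 ligands that other cells make for them. The tissue was mouse neural tube at embryonic day 12.5, from healthy embryos of strain B6NCrl with no genetic change or treatment named in the labels. It was measured by RNA-seq of polyadenylated RNA in 1 group of 2 libraries, each from 10 ng of RNA: replicate 1 pooled 120 embryos and replicate 2 pooled 88 embryos, males and females together. With 1 group there was no contrast of conditions, so the results are the level of each gene, the balance between the gene groups, the transcripts that carried the signal, and the difference between the pools.

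Microglia are the resident macrophages of the central nervous system. In the mouse they descend from yolk sac progenitors that enter the neural tube through the mesenchyme and vessels around it before most neurons mature. Their survival depends on the receptor Csf1r and its ligands Csf1 and Il34, and their identity on the transcription factors Spi1, Irf8 and Sall1. They clear dying cells and read neuronal signals through receptors such as Cx3cr1, P2ry12 and Trem2. Border macrophages share most of this program and live in the meninges and around vessels, where Mrc1, Pf4 and Cd163 are common marks.

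Spi1 binds purine-rich sites around the core GGAA, and many macrophage genes lack a TATA box and rely on such sites near their start. The letters GAGGAAGT, which match such a site, were searched on both strands in the 250 bases before the start in RefSeq's promoter windows for build GRCm38.p6. Of the 32 genes 23 had a window, with 28 windows in all, and the windows of 2 genes, C1qc and Pf4, held the letters (7.14% of the 28 windows). Over all 32851 windows the share was 2.44%. Both stretches are shown since they hold the letters, whatever the level of the gene. The capitals mark the match, which in both lies on the strand opposite to the gene and so reads ACTTCCTC.

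C1qc: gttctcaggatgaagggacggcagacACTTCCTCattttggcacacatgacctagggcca
Pf4: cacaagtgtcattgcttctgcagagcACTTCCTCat

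The C1qc stretch is chr4:136893076-136893135 on the minus strand, outside the gene's annotated exons. Its match ends 187 bases before the RefSeq start used in the search and 36 bases before the start of C1qc in GENCODE M21. The Pf4 stretch is chr5:90772399-90772434 on the plus strand and runs up to the start of the gene, with 2 bases between the match and that start. A match is a description of these letters; binding was not measured here, and the absence of the letters from the other windows says nothing of Spi1 at those genes.

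Of the 32 genes 27 were expressed, taken as at least 1 TPM in both libraries, and 12 were at 10 TPM or more in the mean. TPM is a level per transcript length, scaled alike in each library, so different genes can be set beside each other. Over the 32 genes the median level was 5.905 ± 0.106 TPM (SD, n = 2), and together they took 0.0335% of gene counts in replicate 1 and 0.0337% in replicate 2. For scale, 60.9% of the 22028 protein-coding genes were expressed. The median of those expressed genes alone was 21.7 TPM. It is not like for like with the median of the 32 genes, which includes the 5 under the limit. In bulk tissue such as this, fewer cells of a type and less RNA per cell cannot be told apart. The 5 genes that missed the limit were Ptprc, Cd14, Siglech, Cd163 and Il34.

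In the order of levels Pf4 came first, then Tmem119 and C1qb, and the library values of these 3 did not overlap. Pf4 stood above 71.3% of expressed protein-coding genes, Tmem119 above 61.9% and C1qb above 55.5%. Further down the order was less clear, and in 18 of the 31 neighbouring pairs the library values overlapped. A gap separated the 12 highest, which ended with Csf1r at a mean of 10.3 TPM, from Aif1 at 6.845 TPM.

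**Figure D1:**
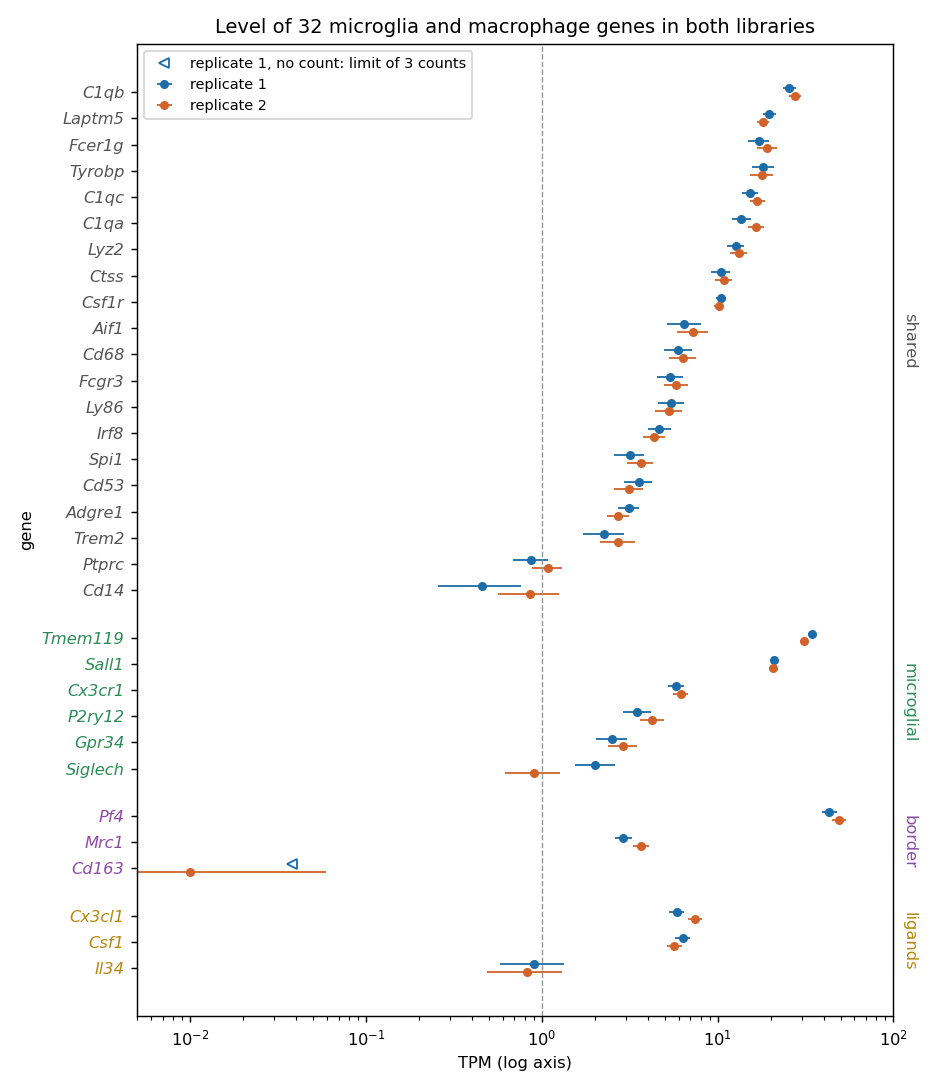
Level of each of the 32 genes on a log axis in TPM, replicate 1 in blue and replicate 2 in orange, ordered within its group; lines are exact 95% Poisson intervals of the counts and the dashed line marks 1 TPM. The open triangle is the limit that no count allows for Cd163 in replicate 1, and apart from Cd163 the gap between a gene's points is widest for Siglech and Cd14.

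The ligand Csf1, a cytokine that supports macrophage survival, was at 6.35 TPM in replicate 1 and 5.67 TPM in replicate 2. Il34, the second ligand of the same receptor, was at 0.90 and 0.82 TPM, from 24 and 18 reads. Csf1 was therefore the higher by 2.80 ± 0.02 on the log2 scale (SD, n = 2), with close agreement of the libraries. Their receptor Csf1r, a tyrosine kinase of the macrophage lineage, was at 10.41 and 10.23 TPM. It exceeded Csf1 by 0.78 ± 0.10 and Il34 by 3.59 ± 0.08 on the log2 scale, where the SD over Il34 again leaves out the counting error of Il34. Csf1r shares 873 exonic bases, 15.1% of its own, with Hmgxb3 on the opposite strand, which was at 18.89 and 20.61 TPM. The labels name no strand-marking step, so whether reads of those bases could be told apart by strand is not known. The posterior SD of the Csf1r count, the error of dividing reads, was 7.69 on 934.3 in replicate 1 and 9.44 on 966.8 in replicate 2.

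The chemokine Cx3cl1, which neurons present on their surface or shed, was at 5.86 TPM in replicate 1 and 7.43 TPM in replicate 2. Its receptor Cx3cr1, found on microglia and on other mononuclear phagocytes, was at 5.80 and 6.16 TPM. Ligand and receptor lay 0.14 ± 0.18 apart on the log2 scale, a gap smaller than its SD. The annotated span of Cx3cr1 overlaps several other genes, but the shared exonic part is 78 bases with the antisense gene Gm33858, which had 1 and 2 reads.

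C1qa, C1qb and C1qc encode the 3 chains of C1q, the recognition protein of the classical complement pathway, which tags synapses and dying cells for uptake. They lie beside each other in 18675 bases, chr4:136880129-136898803 (mm10), all on the minus strand. C1qa was at 13.65 TPM in replicate 1 and 16.53 TPM in replicate 2. C1qb was at 25.54 and 27.53 TPM. C1qc was at 15.36 and 16.81 TPM. C1qb was thus the highest chain in both libraries, by 0.82 ± 0.12 over C1qa and 0.72 ± 0.02 over C1qc (log2), although the protein is built from the chains in equal number. C1qc and C1qa differed by 0.10 ± 0.10, no more than the SD.

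Tyrobp and Fcer1g encode the small membrane adaptors that carry activating tyrosine motifs for receptors without a signalling tail of their own. Tyrobp was at 18.17 TPM in replicate 1 and 17.81 TPM in replicate 2. Fcer1g was at 17.18 and 19.18 TPM, and the log2 ratio of Tyrobp over it was -0.01 ± 0.13. The receptors that use them were lower. Trem2, a lipid receptor that signals through Tyrobp, was at 2.26 and 2.71 TPM, below Tyrobp by 2.86 ± 0.21 on the log2 scale. Fcgr3, a low-affinity receptor for immunoglobulin G that signals through Fcer1g, was at 5.37 and 5.80 TPM, below Fcer1g by 1.70 ± 0.03. The near copies of Fcgr3 held few reads, 2.09 and 8.06 estimated counts for Fcgr2b and 4 in each library for Fcgr4, against 139.9 and 156.9 for Fcgr3.

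The other shared marks of macrophages spanned a wide range. Laptm5, a lysosomal membrane protein of blood cells, was at 19.71 TPM in replicate 1 and 18.12 TPM in replicate 2. Aif1, which encodes the actin-bundling protein Iba1 used to stain microglia, was at 6.48 and 7.21 TPM. Ly86, the partner of a toll-like receptor homologue, was at 5.45 and 5.28 TPM. These 3 were expressed in both libraries, as were Cd53 and Adgre1. Cd53, a tetraspanin of white blood cells, was at 3.55 and 3.12 TPM. Adgre1, which encodes the F4/80 antigen, was at 3.13 and 2.73 TPM. Ptprc, which encodes the pan-leukocyte phosphatase CD45, was at 0.87 and 1.08 TPM, from 79 and 103 reads. Per length, Ptprc lay below Csf1r by 3.41 ± 0.24 and below Laptm5 by 4.29 ± 0.31 on the log2 scale, so a gene named for all leukocytes was among the lowest here. Cd14, a co-receptor for bacterial lipopolysaccharide, had 15 and 26 reads, or 0.46 and 0.86 TPM.

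Spi1, which encodes PU.1, the factor that founds the myeloid lineage, was at 3.16 TPM in replicate 1 and 3.65 TPM in replicate 2. Irf8, its partner in microglial development, was at 4.67 and 4.34 TPM. The libraries agreed that Spi1 was the lower, by 0.56 in replicate 1 (log2 ratio -0.56) and 0.25 in replicate 2 (log2 ratio -0.25). Sall1, a zinc finger factor that sets microglial identity and is also made by neural progenitors, was at 20.80 and 20.52 TPM. Per length, Sall1 exceeded the microglial receptor P2ry12 by 2.42 ± 0.21 on the log2 scale.

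Lysosomal genes of phagocytes were all expressed. Lyz2, the lysozyme of macrophages and neutrophils, was at 12.67 TPM in replicate 1 and 13.16 TPM in replicate 2. Its near copy Lyz1, the intestinal lysozyme, held 0 and 1.01 estimated counts. Ctss, a cathepsin that degrades matrix and antigen, was at 10.42 and 10.84 TPM. Cd68, a lysosomal glycoprotein, was at 5.99 and 6.32 TPM. For these 3 genes the libraries differed by at most 0.03 on the log2 scale of the normalised counts.

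Among the 6 microglial genes Tmem119 was the highest, at 34.27 TPM in replicate 1 and 30.96 TPM in replicate 2. Tmem119 is a surface protein that marks microglia in the adult brain and is also made by bone-forming and other mesenchymal cells. P2ry12, the purine receptor by which microglia sense injury, was at 3.50 and 4.25 TPM. Tmem119 thus exceeded it by 3.08 ± 0.30 on the log2 scale. Gpr34, a receptor for lysophosphatidylserine, was at 2.52 and 2.88 TPM, and lies within Cask on the opposite strand with no exonic base shared. Siglech, a sialic acid receptor that pairs with Tyrobp, was at 2.02 and 0.90 TPM, from 59 and 33 reads. The 95% Poisson intervals of Siglech, 1.54 to 2.61 TPM and 0.620 to 1.26 TPM, did not meet. They take the division of its reads among transcripts as exact, and that division differed between the libraries. Siglech-201 held 35.2% and 0% of the gene's TPM and Siglech-202 0% and 48.7%, both named after their values were seen. Tmem119 and Sall1 held 78.4% to 79.9% of the summed TPM of the 6 genes.

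The border macrophage genes Pf4 and Cd163 were the highest and the lowest of all members, with Mrc1 in between. Pf4, a chemokine of border macrophages and of platelets, was at 43.11 TPM in replicate 1 and 49.11 TPM in replicate 2. Mrc1, the mannose receptor, was at 2.91 and 3.67 TPM, below Pf4 by 3.82 ± 0.10 on the log2 scale. Cd163, the scavenger receptor for hemoglobin bound to haptoglobin, had 0 and 1 reads. For Cd163 a count of 0 allowed up to 0.0379 TPM in replicate 1, and intervals and limits of this kind cover counting error only. Megakaryocytes and platelets also make Pf4, and 5 of 8 genes of that lineage were expressed, with a summed level of 26.7 TPM in replicate 1 and 29.3 TPM in replicate 2. Of these, Ppbp, a platelet chemokine, was at 7.57 and 8.58 TPM, and Itga2b, the platelet integrin chain, at 5.47 and 6.02 TPM. Gp1bb, a chain of the von Willebrand factor receptor, was at 9.41 and 9.98 TPM with a posterior SD of 17.3 and 18.9 reads on 391.5 and 364.8. Pf4 exceeded Ppbp by 2.51 ± 0.01 and Itga2b by 3.00 ± 0.04 on the log2 scale, and how much of Pf4 came from either lineage was not tested.

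Set against each other by the median TPM of each group, the shared myeloid genes were highest at 6.50 ± 0.37 TPM (SD, n = 2), followed by the microglial genes at 4.93 ± 0.39 and the border macrophage genes at 3.29 ± 0.54. In log2 terms the microglial median lay below the shared myeloid median, at -0.40 ± 0.03, and the border median lay further below it, at -0.99 ± 0.15. The microglial median exceeded the border median by 0.59 ± 0.12. An exact permutation test over 2 libraries cannot pass 0.05, so none was run. These balances rest on a few genes. Without Sall1 and Tmem119, an alternative chosen after the data were seen, the microglial over shared ratio was -0.99 and the microglial over border ratio 0.0034. Without Pf4 the border over shared ratio was -1.99. The sign of the border ratios turned on Cd163. Without Cd163, an alternative also added later, the border median lay above the shared median by 1.92 and above the microglial median (microglial over border, -2.32). The geometric mean, which left Cd163 out of both libraries, gave 0.93 and -0.99, and with Cd163 kept at the limit of 3 counts, added later too, it gave -1.89 and 1.83.

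The libraries were compared gene by gene with an exact binomial test of the counts against library sizes scaled by TMM, with p-values adjusted by the Benjamini-Hochberg method over the 20125 genes that reached 10 counts in a library. Such a test compares these 2 libraries and not conditions, and it covers counting error only. Of the 31 members tested, 2 passed at an adjusted p under 0.05, against 20.3% of all genes tested. None of the members was called higher in replicate 2, where 10.5% of all genes were, and both called members were lower, as were 9.78% of all genes. At an unadjusted p under 0.05 there were 6 of the 31 members and at least 20.3% of all genes, the share that passed after adjustment. The spread of the 2 libraries over all genes was then added, in an exact test of edgeR with 1 dispersion for all. By that test 0 members and 1.13% of all genes passed. It gave 1 of the 31 members an unadjusted p under 0.05, for which no share over all genes was taken. Precision grows with depth, so like was set beside like: of 23 members with a mean of 100 to 1000 reads 0 were called by the binomial test, beside 17.7% of the 5996 genes in that range.

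The called members were both of the microglial group. Siglech was lower in replicate 2, with 33 reads against 59, a log2 ratio of -0.89 (95% interval -1.59 to -0.29; exact binomial test, adjusted p = 0.0212). Tmem119 was also lower, with 1411 reads against 1520, a log2 ratio of -0.20 (-0.30 to -0.09; exact binomial test, adjusted p = 0.0025). With edgeR's exact test the adjusted p was 0.282 for Siglech and 1 for Tmem119. For the other microglial genes the log2 ratio was 0.37 for P2ry12 (adjusted p = 0.116, exact binomial test), 0.13 for Gpr34, 0.07 for Cx3cr1 and -0.06 for Sall1, none of them past the threshold.

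Of the 20 shared myeloid genes 15 had a positive log2 ratio of replicate 2 over replicate 1. By the binomial test 0 were called, against 20.3% of all genes tested. The median log2 ratio of those 20 was 0.06, that of the 31 members was 0.07, and that of all genes tested was -0.00093 (a positive ratio in 49.8% of all genes and 67.7% of members). The largest ratio among the shared myeloid genes was that of Cd14, 0.64 (-0.27 to 1.73), whose few reads left it wide. Spi1 followed at 0.37 (-0.01 to 0.76), then Trem2 at 0.36 and Ptprc at 0.29. In the border group Mrc1 had a log2 ratio of 0.23 (exact binomial test, adjusted p = 0.114) and Pf4 of 0.08. Among the ligands Cx3cl1 was at 0.19 (exact binomial test, adjusted p = 0.161), Csf1 at -0.05 and Il34 at -0.46. With ERCC spike-in counts as library size, which moved the median of all genes by 0.06, Cx3cl1, Mrc1 and P2ry12 passed as higher beside the 2 lower genes, 5 of 31 members where 25.2% of all genes passed.

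**Figure D2:**
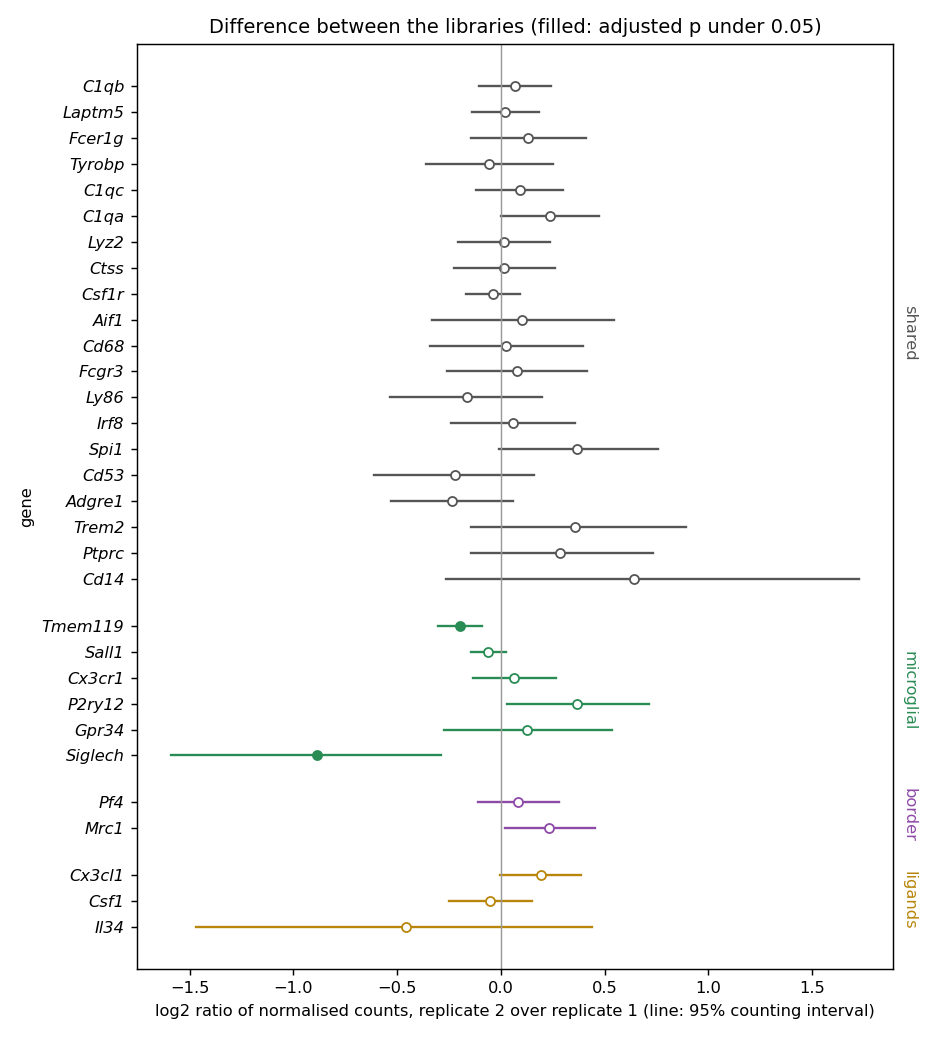
Log2 ratio of replicate 2 over replicate 1 for the 31 members tested, on normalised counts; points are ratios, lines are 95% counting intervals, and filled points passed an adjusted p of 0.05 in the exact binomial test. Siglech and Tmem119 are filled and lie below 0; the intervals of Cd14, Il34 and Siglech are the widest.

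**Figure D3:**
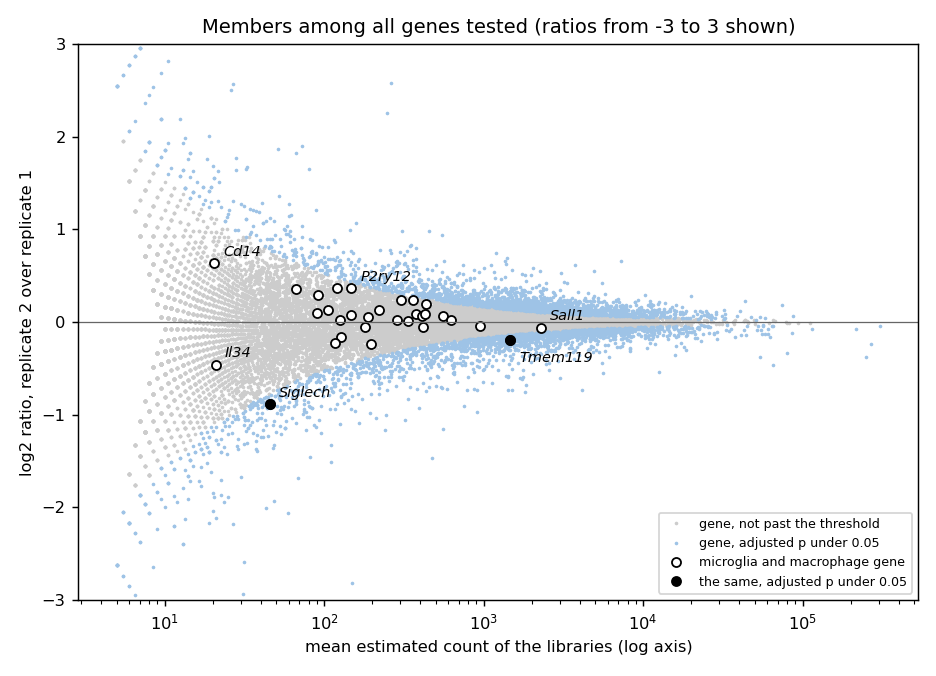
Log2 ratio of replicate 2 over replicate 1 against the mean estimated count of the libraries (log axis) for the genes tested, in blue where the adjusted p is under 0.05 and grey otherwise, with the members as circles. Apart from Siglech and Tmem119 the members sit in the grey band of genes at their depth.

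The transcript tables showed which annotated form carried each gene. Of 128 annotated transcripts of the members, 44 held at least 10% of their gene's TPM in both libraries; 19 genes had 1 such transcript, 12 had more and Cd163 had none. C1qa, C1qb, Lyz2, Cd53 and Sall1 have a lone annotated transcript each. Aif1 divided between the coding Aif1-203, at 67.3% in replicate 1 and 66.2% in replicate 2, and Aif1-205, annotated as a retained intron, at 32.7% and 33.8%. Pf4 also carried a retained intron form, Pf4-202, at 17.3% and 24.5%, beside the coding Pf4-201 at 82.7% and 74.0%. In Cd68 the non-coding Cd68-203 took 27.0% and 24.6%. These shares were loosely resolved. The posterior SD was 7 and 7.4 reads on 16.1 and 19.2 for Aif1-205, and 17.0 and 20.3 on 40.7 and 68.15 for Pf4-202. For Cd68-203 it was 7.32 and 7.5 reads on 17.4 and 17.3.

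Some receptors and ligands were split among coding forms. Trem2 was shared by Trem2-201 at 48.8% and 52.2% and Trem2-202 at 45.5% and 38.7%. Csf1 was carried by Csf1-201 at 52.9% and 56.3% and by Csf1-202 at 26.5% and 32.3%, both coding. Laptm5 was spread over Laptm5-207, Laptm5-210 and Laptm5-201, the first at 38.5% and 51.4%. Not all splits were stable between the pools. Il34-205, a processed transcript without a coding frame, took 32.9% of Il34 in replicate 1 and 57.7% in replicate 2, on 3.58 and 5.90 estimated counts. Ctss-201 took 22.8% and 18.3%, with a posterior SD of 31.2 reads on 62.6 and 27.0 on 54.0, so the split of Ctss was poorly resolved.

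**Figure D4:**
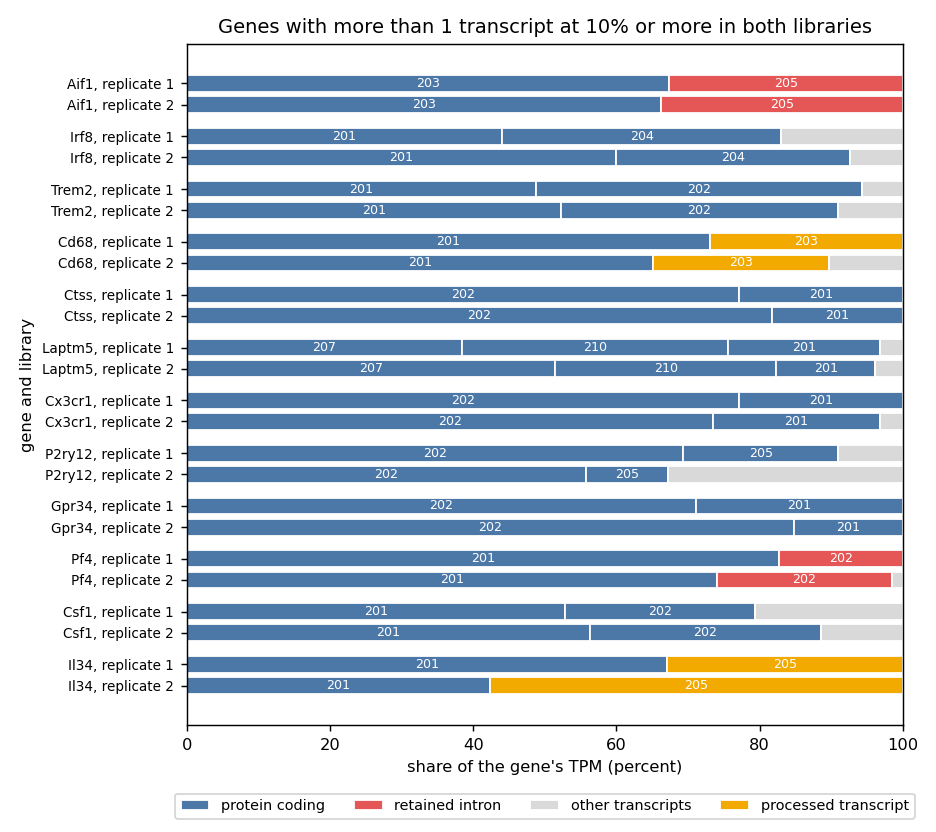
Share of each gene's TPM by transcript, in percent, for the 12 members with more than 1 transcript at 10% or more in both libraries; the upper bar of each pair is replicate 1 and the lower replicate 2, coloured by annotated type and marked with the transcript's number. Aif1 and Pf4 hold a retained intron form in both bars, and the bars of Il34 and P2ry12 differ most between the libraries. The error of dividing reads among transcripts is not drawn.

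The neural tube label was checked first among the lists of other genes. The 6 neural progenitor genes and 6 neuronal genes all passed 1 TPM, and the medians of the lists were 79.8 ± 8.08 and 303 ± 22.3 TPM (SD, n = 2). Further genes of microglia were mostly expressed, 9 of 11, the highest being Sparc, a matrix protein also made by many other cells, at 436.8 ± 9.45 TPM. Sall3, a relative of Sall1 in neural cells, was at 22.5 ± 2.01 TPM, and in log2 terms lay within 0.12 ± 0.12 of Sall1. Of 10 tested in that list 1 was called by the binomial test, against 20.3% of all genes tested. It was Sall3, lower in replicate 2 by 0.23 (log2 ratio -0.23). Of other border macrophage genes 5 of 9 were expressed, led by the scavenger receptors Colec12 at 30.6 ± 3.92 TPM and Stab1 at 20.96 ± 0.622 TPM, which vessel and stromal cells also make. F13a1, the coagulation factor chain of border macrophages and platelets, was at 6.425 ± 0.488 TPM.

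Signalling and transcription partners of the members were read from their own lists. Of 10 genes that act below Csf1r and Tyrobp 9 were expressed, with the widely used adaptor Grb2 at 141.1 ± 7.92 TPM, the kinase Pik3cd at 17.2 ± 1.33 TPM and Lyn, a Src family kinase, at 7.33 ± 0.778 TPM. Of 10 myeloid transcription factors 7 were expressed. Mef2c was at 27.2 ± 1.85 TPM and Nfe2l2 at 15.4 ± 1.59 TPM, both of which other cells of the embryo also use. In the M4 tables Mef2c was at 11.66 and 11.53 TPM, 0.427 times its M21 level. In that list 3 of 10 were called higher in replicate 2 and 0 lower by the exact binomial test, against 10.5% and 9.78% of all genes tested. edgeR's exact test called 0 in the list, against 1.13% of all genes. The 3 were Runx1 (log2 ratio 0.47), Irf5 (0.52) and Ikzf1 (0.75), named after their values were seen.

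Complement beyond C1q was low, at a median of 0.818 ± 0.0106 TPM, and 4 of its 10 genes passed 1 TPM in both libraries. Cd93, a receptor of endothelium and myeloid cells, was at 6.01 ± 0.424 TPM and C3ar1, the receptor of a C3 fragment, at 1.51 ± 0.212 TPM. C3 itself, named after its values were seen, was at 0.76 and 0.54 TPM.

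Other blood lineages differed in how far their genes were seen. Of 6 monocyte genes 1 was expressed in both libraries, Vcan, a matrix proteoglycan of many embryonic tissues, at 32.9 ± 5.93 TPM. The next in the list, Plac8, was at 1.23 ± 0.382 TPM and the chemokine receptor Ccr2 at 0.275 ± 0.0778 TPM. Of 5 mast cell genes and of 8 lymphoid genes 0 were expressed, with Mcpt4, Tpsb2 and Ncr1 listed at 0 in both libraries. All 6 erythroid genes were expressed, at a summed 6484 TPM in replicate 1 and 6416 TPM in replicate 2, led by the embryonic globins Hbb-y and Hba-x and by the heme enzyme Alas2. All 8 endothelial genes were expressed too, at a median of 18.6 ± 0.976 TPM, with Cldn5, Esam and Kdr the highest. Both pools thus held RNA of vessels and of red blood cells.

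Of the 17 lists the neutrophil and granule genes had the largest median log2 ratio between the libraries, 0.55. Of 8 such genes 6 were expressed, and their summed level was 37.2 TPM in replicate 1 and 47.7 TPM in replicate 2. By the exact binomial test 4 of 7 tested were called higher in replicate 2 and 1 lower, against 10.5% and 9.78% of all genes tested. The higher were S100a8 at 12.33 and 18.72 TPM, S100a9 at 5.43 and 9.50 TPM, Ngp at 1.87 and 3.37 TPM and Ltf at 0.95 and 1.74 TPM. Of these edgeR's exact test, which 1.13% of all genes passed, kept Ltf. The early granule enzyme Mpo was the lower, at 2.85 and 2.24 TPM, and Prtn3, another early granule enzyme, was at 12.14 and 9.96 TPM. Ngp, Ltf and Mpo were named after their values were seen. Several members are also made by neutrophils and their precursors, among them Lyz2, Fcer1g, Fcgr3 and Spi1. Their log2 ratios were 0.01, 0.13, 0.08 and 0.37, and the part of neutrophils in them was not tested.

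**Figure D5:**
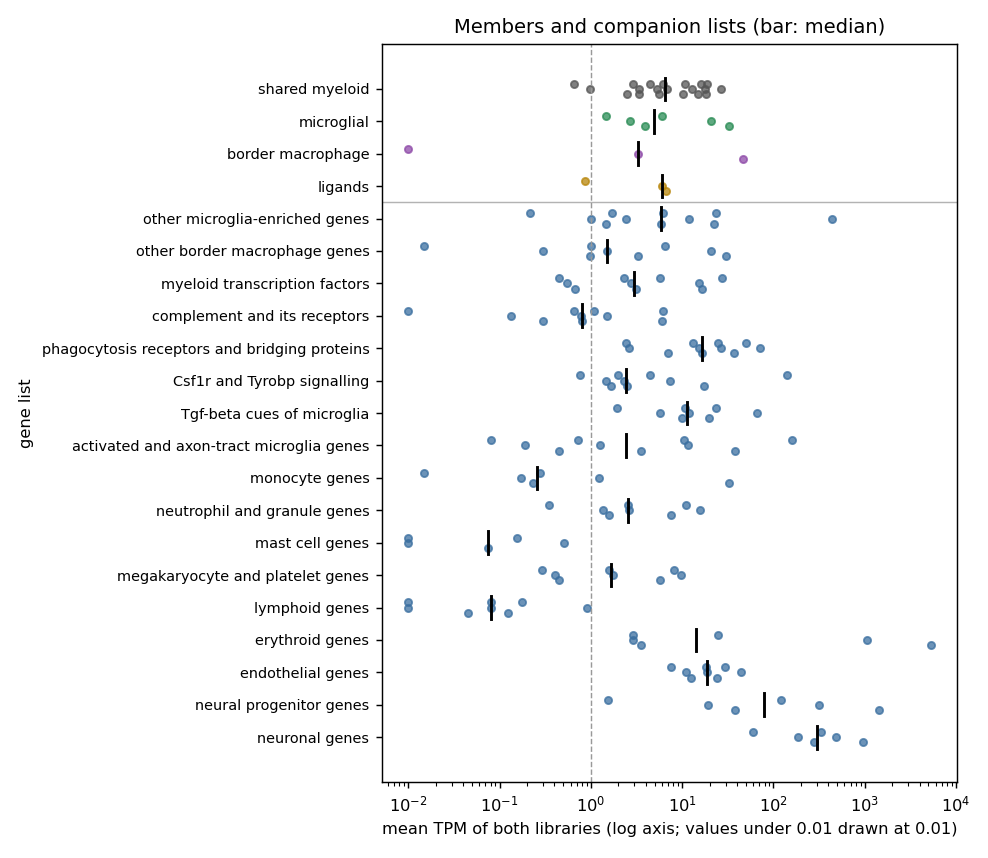
Mean TPM of both libraries for each gene, on a log axis, by list; the 4 member groups stand above the grey line, bars are medians of the gene means and the dashed line marks 1 TPM. The medians of the member groups lie between the mast cell and lymphoid lists, whose genes are all under 1 TPM, and the neural lists, with medians of 79.8 and 303 TPM.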

How the data were processed

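The authors deposited gene and transcript tables of each library. Per the notes deposited with them, the transcriptome alignment used assembly mm10, and quantification used GENCODE release M21, the main source, or release M4, an alternative. Neither aligner nor quantifier is given in the sources used here. The columns are those RSEM writes, per the file headers. The deposited estimated count (expected count) divides reads that fit several genes among them. The deposited TPM is that count over effective length, scaled to a fixed sum over the table. The deposited transcript share is a percent of the gene's TPM, and the deposited posterior SD of a count gives the error of dividing reads.

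Symbols were matched to gene IDs through the GENCODE M21 annotation, and all 32 members were found. The members, their groups and the 17 companion lists with 140 genes were chosen with earlier results of these data known. Named are all members, the 3 genes of highest mean TPM in each companion list and any at 0 in both libraries, transcripts with at least 10% of a gene in both, overlapping genes, Lyz1, Fcgr2b and Fcgr4; others are said to be named later. Some genes under this rule are not reported here.

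Replicate 1 held 33529531 and replicate 2 held 35461403 estimated counts, so that 1 read in 1 kb was worth 0.0477 and 0.0462 TPM. PCR copies are counted as reads, since no molecular identifiers are named. Intervals are exact Poisson or binomial, at 95%, and a count of 0 was taken to allow 3 counts. For the comparison of libraries, estimated counts were rounded, library sizes scaled by TMM (edgeR 4.0.16, R 4.3.3), genes below 10 counts in both libraries left out, and log2 ratios taken with a prior count of 2. The labels call the libraries biological replicates. The binomial p-values judge the difference between them against counting error alone. Those of edgeR's exact test add 1 dispersion, estimated from the same 2 libraries taken as replicates of 1 group. edgeR's quasi-likelihood test could not be fitted with 1 library a side, so an exact binomial test was used. It was tried on simulated counts with counting error only, so its behaviour under spread between pools was not tested. The alternatives were edgeR's exact test and DESeq2 1.42.0 size factors. Tests ran in scipy 1.17.1 and pandas 2.3.3 under Python 3.11.15. Promoter windows are RefSeq's on GRCm38.p6. Protein sequences were not used here.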

Additional observations from a re-analysis of the deposited data

How the results depend on the processing

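Leaving out a library gave microglial over shared ratios (log2) of -0.42 to -0.38, border over shared of -1.10 to -0.88, microglial over border of 0.50 to 0.68 and 28 genes expressed. Other ways of grouping moved the balances more. Microglial over shared was -0.49 with the M4 tables, -0.46 with posterior mean TPM, -0.0602 with the geometric mean, -0.75 without Sall1 and -0.67 with Cx3cr1 moved to the shared group. Border over shared turned to 0.93 with the geometric mean, which left Cd163 out of both libraries, and was -1.99 without Pf4. Microglial over border turned to -0.99 with the geometric mean in the same way, and was 0.24 without Sall1, 0.24 with Cx3cr1 moved and 1.59 without Pf4. Alternatives added after seeing the data gave, without Cd163, 1.92 for border over shared and -2.32 for microglial over border, and with the geometric mean and Cd163 at the limit of 3 counts -1.89 and 1.83, so the sign followed Cd163 and not the summary. Others gave, without Sall1 and Tmem119, -0.99 for microglial over shared and 0.0034 for microglial over border, and with the groups widened by the companion lists -0.23, -1.47 and 1.24 in the order above. The cause of the moves with the M4 tables and posterior mean TPM was not tested. The number of members called was 5 with ERCC scaling, where 25.2% of all genes were called and the median log2 ratio was 0.12 for the members and 0.05 for all genes, and 0 with edgeR's exact test; it was 2 with DESeq2 size factors, unscaled library sizes, no count filter, the M4 tables or posterior mean counts. The number expressed was 30 at 0.5 TPM, 19 at 5 TPM, 27 with the M4 tables and 30 with posterior mean TPM. In the M4 tables all 32 levels lay within 1.5-fold of M21 (0.907 to 1.16 times), and 8 moved by more than their SD. No paired analysis was possible because there is 1 group. Depth limits Cd163, Cd14, Il34 and Siglech most, and with 2 pools no spread between embryos can be given.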

Other observations

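The genes of apoptotic cell uptake were present throughout: all 11 phagocytosis receptors and bridging proteins were expressed, at a median of 16.7 ± 0.269 TPM (SD, n = 2). Lrp1, a large endocytic receptor, was at 71.4 ± 6.12 TPM, Mfge8, which bridges phosphatidylserine to integrins, at 50.0 ± 1.202 TPM and the integrin chain Itgav at 36.6 ± 0.820 TPM. Many cell types of the embryo make these, and the receptor kinase Axl lay above its relative Mertk, which microglia use, by 3.35 ± 0.22 on the log2 scale, a pair named after its values were seen. By the exact binomial test 2 of the 11 were called higher in replicate 2 and 0 lower, against 10.5% and 9.78% of all genes tested.

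Tgf-beta signalling, by which neural tissue keeps microglia in their resting state, was represented by all 8 genes listed, at a median of 11.4 ± 0.559 TPM. Tgfbr1, a receptor chain, was at 66.1 ± 1.80 TPM, Tgfb2 at 23.6 ± 2.54 TPM and the mediator Smad3 at 19.9 ± 0.707 TPM. Tgfb2 exceeded Tgfb1 by 3.60 ± 0.08 on the log2 scale, Tgfb1 being at 2.01 and 1.86 TPM and named after its values were seen. By the exact binomial test 1 of the 8 was called higher in replicate 2 and 1 lower, against 10.5% and 9.78% of all genes tested.

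Of 10 genes of activated and axon-tract microglia 6 were expressed. The apolipoprotein Apoe was at 161.3 ± 2.57 TPM, the tetraspanin Cd9 at 37.5 ± 3.99 TPM and the growth factor Igf1 at 11.7 ± 1.25 TPM, all 3 made by other cells as well. By the exact binomial test 2 of 8 tested were called higher in replicate 2 and 0 lower, against 10.5% and 9.78% of all genes tested.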
